A study of Mus musculus with 8 samples.

Results

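The 10 genes described here encode the Shank, Dlg and Dlgap scaffold proteins of the postsynaptic density. They are *Shank1*, *Shank2* and *Shank3*, *Dlg1*, *Dlg2*, *Dlg3* and *Dlg4*, and *Dlgap1*, *Dlgap2* and *Dlgap3*, chosen by name from these 3 families. *Dlg5* and *Dlgap4* are not among the 10. The 10 genes were matched by symbol among the 38553 genes of the deposited RNA-Seq table, and 10 of the 10 were found, each under a single identifier. None of the 10 passed the test used for a difference between dorsal and ventral medial entorhinal cortex (MEC). Over all genes tested, 2.15% passed as higher dorsally and 1.45% as higher ventrally, so this count is near the background. With the FPKM scaled as deposited, a difference of 20% was not settled for 3 of the 10. Levels of the 10 genes spanned a range from 11.2 to 238 FPKM (mapped fragments scaled to the length of a gene's exons and to the size of the library).

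The postsynaptic density is the protein meshwork under the membrane of excitatory synapses that holds glutamate receptors opposite the release site. Proteins of the Dlg family, such as PSD-95 encoded by *Dlg4*, bind receptors and adhesion proteins through their PDZ domains. Dlgap proteins (also called GKAP or SAPAP) bind the guanylate kinase domain of Dlg proteins. Shank proteins bind Dlgap proteins, connect to the actin cytoskeleton and, through Homer, are tied to metabotropic glutamate receptors. Dlg, Dlgap and Shank proteins thus link receptors at the membrane to the interior of the dendritic spine.

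RNA was measured in 4 dorsal and 4 ventral libraries from male C57BL/6JolaHsd mice aged 8 weeks. Slices of the right MEC 400 µm thick came from 13 mice in 4 groups, and the dissected dorsal or ventral tissue of 3 or 4 mice was pooled for each library, and errors therefore describe variation among pools of mice, not among single mice. All animals were untreated and of the same strain, so the region is the only difference between the groups that the labels give. The columns of the FPKM table are headed D or V with a number. For 4 of these 8 columns the header disagrees with the region used here. The authors' table of mean FPKM has a first and a second condition, and the first matches the dorsal values in the study's own gene list. Averages of columns D1, V1, D2, V2 equalled the first condition, and averages of D3, V3, D4, V4 the second, within 0.1% for 14956 of 14970 genes. The next best of the 70 possible assignments did so for 287 genes. The region of each column was therefore taken from matching averages, as no label ties a column to a sample, and libraries are named by their headers. With the regions as the headers name them, 0 of the 10 genes were called as well. Of the 13674 genes tested with those regions, only 1 was called higher dorsally and 0 higher ventrally. The count of 0 therefore cannot show whether the assignment matters for the 10 genes. Total fragments per library were not used here, so depth is not given. Summed FPKM per library lay between 298763 and 341402.

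The most abundant scaffold transcript was that of *Dlg4*, with a mean of 238 FPKM over the 8 libraries. It was followed by *Dlgap1* with 179, *Dlg2* with 169, *Shank1* with 121, *Dlg1* with 79.3, *Dlg3* with 42.9, *Dlgap2* with 35.1, *Shank2* with 34.1, *Shank3* with 16.5 and *Dlgap3* with 11.2. All 10 lay above the median of 7.98 FPKM over the 13674 genes tested, with *Dlg4* at the 99.2th and *Dlgap3* at the 59.9th percentile of level. FPKM is a level per length, so the genes were set side by side, although other differences in how well each gene is measured were not tested. Neighbours in this order were compared within each library by an exact sign-flip permutation test on log2(FPKM + 1), two-sided, for which 8 libraries allow a smallest *p* of 0.00781. For 7 of the 9 neighbouring pairs the higher gene was higher in 8 of 8 libraries (exact *p* = 0.00781, adjusted p = 0.0100 over the 9 pairs). The order was taken from the same 8 libraries, and the dorsal and ventral libraries came from the same 4 groups of mice. The test treated the 8 libraries as independent. These *p*-values therefore describe only the spread among libraries, not that among groups of mice. The remaining pairs did not pass this test over the 8 libraries. For *Dlgap1* and *Dlg2* the spread over the 8 libraries includes a difference between the regions. *Dlgap1* minus *Dlg2* was 0.19 ± 0.07 on the log2 scale in dorsal and −0.02 ± 0.01 in ventral libraries (SD, n = 4 each). The pair was not tested within a region. *Dlgap1* and *Dlg2* had a mean log2 difference of 0.09 ± 0.12 (SD over 8 libraries, exact permutation *p* = 0.125, adjusted p = 0.141), and *Dlgap2* and *Shank2* one of 0.04 ± 0.07 (exact permutation *p* = 0.195, adjusted p = 0.195).

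**Figure D1:**
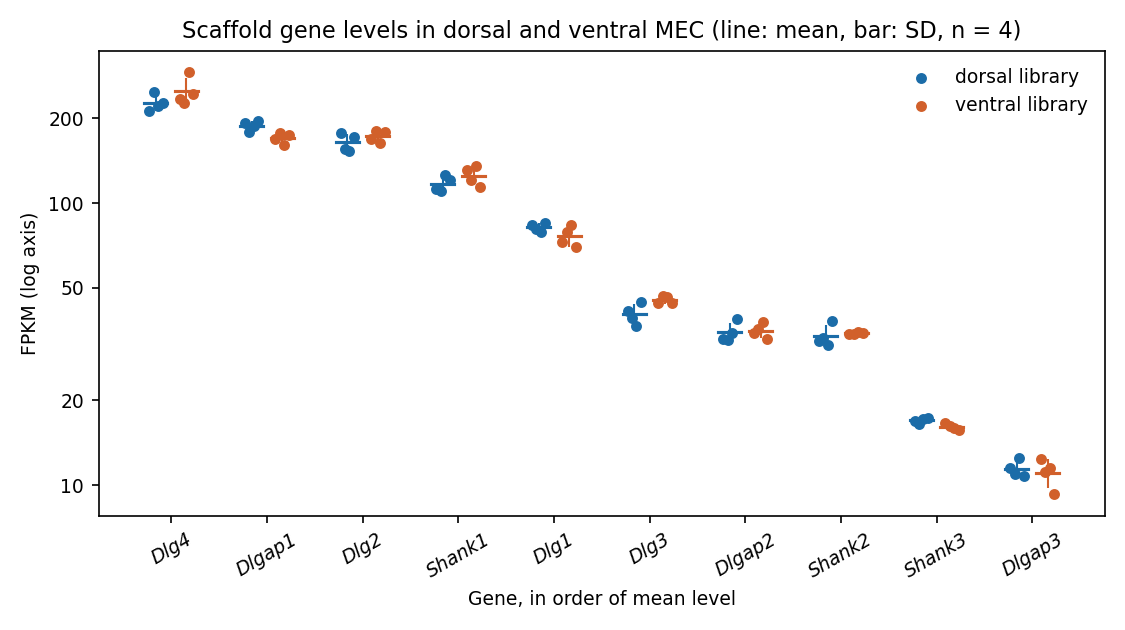
FPKM of the 10 scaffold genes on a log axis, in order of mean level, with 1 point per dorsal (blue) or ventral (orange) library, the mean as a line and the SD as a bar (n = 4 each). Levels run from 238 FPKM for *Dlg4* to 11.2 for *Dlgap3*, and the dorsal and ventral points of a gene lie close together.

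Among the Shank genes, which encode the innermost scaffold layer, *Shank1* was the most abundant. Its FPKM was 112, 110, 126 and 121 in the dorsal libraries D1, V1, D2 and V2, and 131, 121, 135 and 114 in the ventral libraries D3, V3, D4 and V4. The regions overlapped, and 2 of the 4 ventral libraries lay above the highest dorsal one. *Shank2* had 32.3, 33.1, 31.4 and 38.2 FPKM dorsally and 34.4, 34.3, 34.9 and 34.6 ventrally. The ventral values lay within 1 FPKM of each other and inside the dorsal range, which was wide because of V2. *Shank3*, the gene affected in Phelan-McDermid syndrome, had 16.9, 16.5, 17.2 and 17.3 FPKM dorsally and 16.6, 16.2, 15.9 and 15.7 ventrally. It varied least of the 10 genes within a region (coefficient of variation 2.18%), and 3 of the 4 ventral libraries lay below the lowest dorsal one.

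The Dlg genes encode the membrane-associated guanylate kinases that sit nearest the receptors. *Dlg4* (PSD-95) had 213, 248, 221 and 226 FPKM in dorsal and 234, 226, 292 and 244 in ventral libraries. The regions overlapped, and D4 alone exceeded the dorsal range. *Dlg2* (PSD-93) had 177, 156, 153 and 172 FPKM dorsally and 169, 180, 163 and 179 ventrally, so that the ranges largely coincided. *Dlg1* (SAP97), which is also used in trafficking of AMPA receptors, had 83.7, 81.2, 79.0 and 85.1 FPKM dorsally and 72.9, 79.2, 83.4 and 69.6 ventrally. Here 2 ventral libraries, D3 and V4, lay below the dorsal range. *Dlg3* (SAP102), a scaffold prominent early in development, had 41.4, 39.0, 36.7 and 44.7 FPKM dorsally and 44.2, 46.7, 46.3 and 44.3 ventrally. The ventral libraries were at the upper end, and 1 dorsal library, V2, reached into their range.

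Of the Dlgap genes, the adaptors between Dlg and Shank, *Dlgap1* had 193, 179, 187 and 195 FPKM in dorsal and 169, 177, 161 and 175 in ventral libraries. It was the only one of the 10 genes whose regions did not overlap, with 4 of 4 ventral libraries below every dorsal one. Over all genes tested, 11.1% had regions that did not overlap, so 1 gene in 10 is close to the background. *Dlgap2* had 33.0, 32.6, 34.7 and 38.9 FPKM dorsally and 34.6, 35.7, 38.0 and 33.0 ventrally. *Dlgap3*, the adaptor best known from the striatum, had 11.5, 10.9, 12.5 and 10.8 FPKM dorsally and 12.4, 11.1, 11.5 and 9.26 ventrally. Both overlapped between regions, with 1 ventral library of *Dlgap3*, V4, below the dorsal range.

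No library was the highest or the lowest for all 10 genes. The dorsal library V2 was the highest of the 8 for 5 of the genes, D4 and V3 for 2 each and D2 for 1. V2 also had the largest summed FPKM, 341402, and the part of scaling in its values was not tested. The lowest library was D2 for 3 genes, V4 for 3, V1 for 2, and D1 and D4 for 1 each. The coefficient of variation within a region lay between 2.18% for *Shank3* and 9.89% for *Dlg4*, with a median of 6.20%. The median was 8.64% over the 5913 genes tested that had a mean of at least 10 FPKM, as all 10 scaffold genes did.

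One question of the study was which genes are organized along the dorsoventral axis of the MEC, where the scale of grid cell firing and the synaptic properties of stellate cells change. The regions were compared with limma on log2(FPKM + 1), with *p*-values adjusted over all 13674 genes by the Benjamini-Hochberg method. A gene was called at an adjusted p under 0.05 together with a higher mean FPKM at least 1.2 times the lower one, a 20% difference. By this rule 2.15% of all genes tested were higher dorsally (D>V) and 1.45% higher ventrally (V>D), and 0 of the 10 scaffold genes were called in either direction, a count near this background. At an unadjusted *p* under 0.05 there were 2 of the 10, *Dlg3* and *Dlgap1*, against a background of 16.0% of all genes. With fewer cells of a type and less RNA per cell not distinguishable in tissue samples, the values describe the tissue and not single neurons.

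The mean FPKM of *Dlg3* was 40.4 ± 3.41 (SD, n = 4) dorsally and 45.4 ± 1.34 (SD, n = 4) ventrally, 12.2% higher in ventral MEC, and limma gave a log2 fold change of 0.17 ± 0.07 (standard error) at an adjusted p of 0.270. That of *Dlgap1* was 188 ± 7.02 dorsally and 170.5 ± 7.38 ventrally (SD, n = 4 each), and limma gave a log2 fold change of −0.14 ± 0.06 (standard error) at an adjusted p of 0.286. *Dlg4* had means of 227 ± 15.2 and 249 ± 29.6 FPKM (SD, n = 4 each) and a log2 fold change of 0.13 (adjusted p = 0.560, limma). For the other seven genes the log2 fold change lay between −0.11 for *Dlg1* and 0.09 for *Shank1*, and the adjusted p-values between 0.501 and 0.927. The ratio of mean FPKM was above 0 on the log2 scale for 6 genes and below 0 for 4, with a median of 0.03 against −0.01 over all genes tested. Its median size, regardless of sign, was 0.09, the same to 2 decimals as for genes with a mean of at least 10 FPKM.

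The intervals of these differences were narrow. The 95% interval of the log2 fold change, not adjusted for the number of genes, lay inside a 20% difference in either direction for 7 of the 10 genes, against 28.6% of all genes tested and 42.2% of those with a mean of at least 10 FPKM. It ran from −0.20 to 0.05 for *Shank3*, from −0.12 to 0.19 for *Shank2* and from −0.14 to 0.19 for *Dlgap2*. The limit was met with little room to spare by *Dlg1*, whose interval reached down to −0.26, and by *Shank1*, whose interval reached up to 0.26. The count of 7 is for the FPKM scaled as deposited, and none is given for other scalings. With total FPKM made equal across libraries, the log2 ratio of mean FPKM moved from 0.10 to 0.15 for *Shank1* and from 0.07 to 0.12 for *Dlg2*. For *Dlg1* it moved from −0.11 to −0.06. For *Dlg4* (−0.07 to 0.33), *Dlg3* (0.01 to 0.32) and *Dlgap1* (−0.28 to −0.01) the interval extended past 20%, so a difference of that size was not settled for these genes. At the median standard error of the 10 genes, 0.07, a log2 fold change of about 0.29, a difference of 22.4%, would have been needed for a call. The standard errors ran from 0.05 for *Shank3* to 0.09 for *Dlg4*, and the difference needed was smaller or larger with them.

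**Figure D2:**
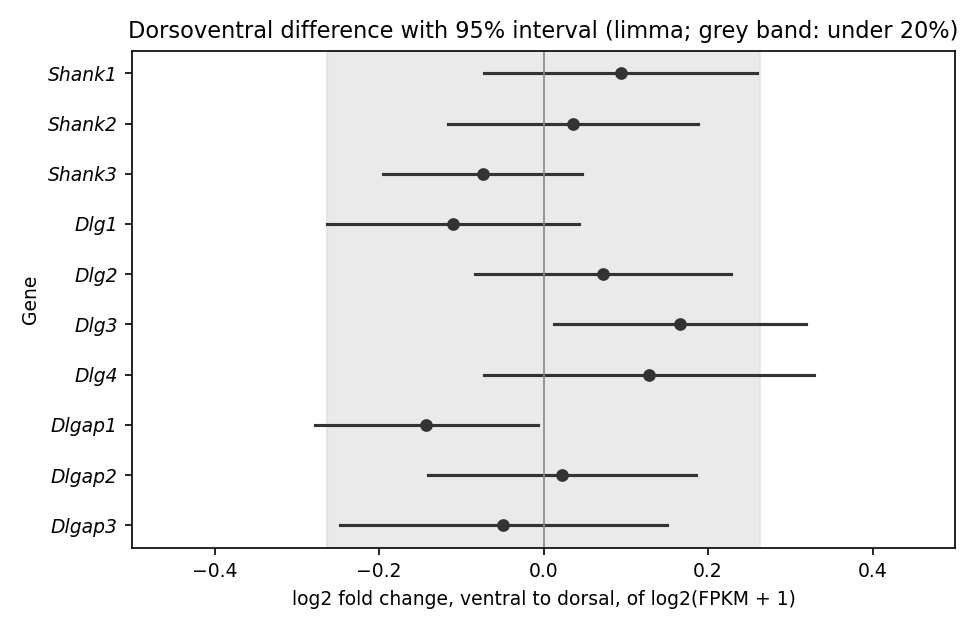
log2 fold change of ventral to dorsal MEC on the log2(FPKM + 1) scale for the 10 scaffold genes (points), with 95% intervals from limma (lines). The grey band marks differences under 20%, and the intervals of *Dlg3*, *Dlg4* and *Dlgap1* reach beyond it.

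Each gene was also expressed as a share of the summed FPKM of those of the 10 genes that belong to its family. This measure does not depend on the scaling between libraries. *Dlg5* (mean 9.31 FPKM) and *Dlgap4* (mean 46.5 FPKM, above *Dlgap2* and *Dlgap3*) are not in these sums. The Dlg and Dlgap shares are therefore larger than shares of the whole family would be. *Shank1* made up 69.8 ± 1.70% of Shank expression dorsally and 71.1 ± 1.45% ventrally (SD, n = 4 each). *Shank2* made up 20.1 ± 1.60% and 19.7 ± 1.05%, and *Shank3* 10.1 ± 0.370% and 9.16 ± 0.454%. The Shank pool thus consisted mostly of *Shank1* in both regions. *Dlg4* held 44.1 ± 2.61% of the Dlg sum dorsally and 45.7 ± 3.09% ventrally, *Dlg2* 32.0 ± 1.95% and 31.9 ± 2.72%, *Dlg1* 16.0 ± 0.352% and 14.0 ± 0.804%, and *Dlg3* 7.86 ± 0.483% and 8.36 ± 0.365%. *Dlgap1* held 80.3 ± 0.729% of the Dlgap sum without *Dlgap4* dorsally and 78.6 ± 1.72% ventrally, *Dlgap2* 14.8 ± 0.837% and 16.3 ± 1.23%, and *Dlgap3* 4.88 ± 0.377% and 5.10 ± 0.651%. Among the genes counted, a single gene therefore held most of the Shank sum and of the Dlgap sum, whereas the Dlg sum was spread over several genes.

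The shares were compared by an exact permutation test, two-sided, which cannot go below *p* = 0.0286 with 4 libraries against 4, and were adjusted over the 10 shares. None of the 10 passed, and 0 passed with *Dlg5* and *Dlgap4* added to the sums (exact permutation test, lowest adjusted p = 0.143). The shares of *Shank3* and of *Dlg1* did not overlap between regions. *Shank3* held 9.80 to 10.5% dorsally and 8.55 to 9.56% ventrally, a difference of −0.961 percentage points (exact permutation *p* = 0.0286, adjusted p = 0.143). *Dlg1* held 15.5 to 16.3% dorsally and 13.0 to 14.9% ventrally, a difference of −1.96 percentage points (exact permutation *p* = 0.0286, adjusted p = 0.143). Both *p*-values are the smallest the design allows, and shares at this *p* could have passed the adjustment only if at least 6 of the 10 had reached it. The adjusted p for the other eight shares lay between 0.286 and 0.971.

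**Figure D3:**
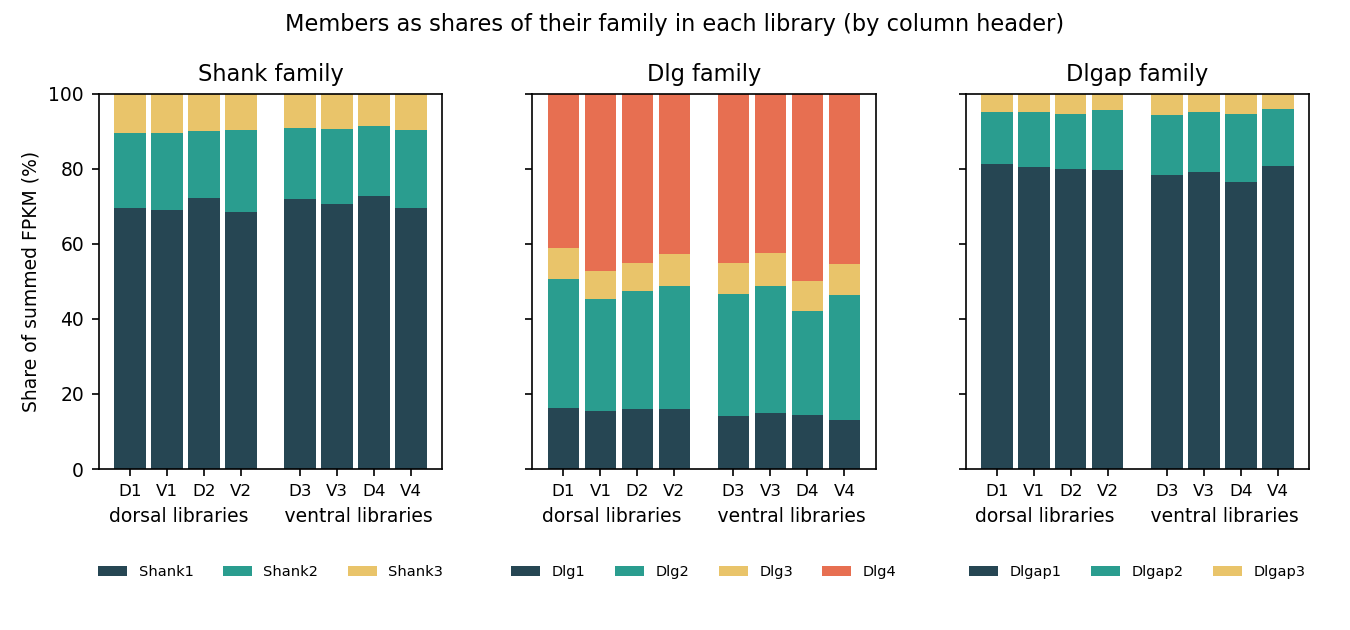
Share of summed FPKM held by each gene within the Shank, Dlg and Dlgap families (stacked bars, percent), for the 4 dorsal and the 4 ventral libraries named by column header. The sums leave out *Dlg5* and *Dlgap4*. Over the 8 libraries *Shank1* holds about 70.5% of the Shank sum and *Dlgap1* about 79.4% of the Dlgap sum without *Dlgap4*. The bars look alike in both regions.

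Summed over the same genes of each family, without *Dlg5* and *Dlgap4*, Shank genes had 168 ± 8.82 FPKM in dorsal and 176 ± 9.76 FPKM in ventral MEC, Dlg genes 514 ± 17.6 and 544 ± 28.6, and Dlgap genes 234.5 ± 9.06 and 217 ± 5.68 (SD, n = 4 each). The sum over the 10 genes was 917 ± 22.4 FPKM dorsally and 936 ± 30.1 ventrally, a difference of 2.13%. These sums are given without a test.

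Proteins that work with these scaffolds were taken from lists chosen with earlier results of these data known. Of 27 other excitatory scaffolds and adaptors, among them *Dlg5*, *Dlgap4* and the Homer, Magi and Grip genes, 26 were tested. Of these, 1 was called D>V and 0 V>D, with 4 at an unadjusted *p* under 0.05. The 1 called was *Homer1*, whose protein ties Shank to metabotropic glutamate receptors. *Homer1* had 48.0, 40.0, 34.4 and 40.1 FPKM in the dorsal and 31.3, 31.1, 24.2 and 28.1 FPKM in the ventral libraries. Every ventral library lay below every dorsal one, and limma gave a log2 fold change of −0.48 ± 0.11 (standard error) at an adjusted p of 0.0403. The FPKM sums all transcripts of the gene, so the short activity-induced form of *Homer1* cannot be told apart from the long forms. Over the 8 fits that each left out 1 library, the log2 ratio of mean FPKM stayed between −0.57 and −0.41 (−0.50 with all libraries), while the call held without D2 or V3 and was lost without D1, V1, V2, D3, D4 or V4 (adjusted p from 0.0332 to 0.106). It was also lost by limma with total FPKM made equal across libraries (adjusted p = 0.105), with quantile normalization (0.0530) and without a mean-variance trend (0.0561). In the 4 libraries whose headers match their region it was not called either (limma, adjusted p = 0.534). That fit called 0 of 13661 genes, so the lost call there is not particular to *Homer1*.

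Of 13 enzymes and regulators of the postsynaptic density, including CaM kinase II, 13 were tested and 0 were called by limma, with 4 at an unadjusted *p* under 0.05. Of 21 receptors and adhesion proteins that bind these scaffolds, 20 were tested, with 1 called D>V, 1 called V>D and 3 at an unadjusted *p* under 0.05. The remaining 1, the TARP gene *Cacng8*, is listed at 0 in every library. *Gria4*, an AMPA receptor subunit, was lower ventrally (53.9 ± 2.25 against 43.9 ± 2.80 FPKM, SD, n = 4 each, log2 fold change −0.29, adjusted p = 0.0347, limma). *Gria1*, the AMPA receptor subunit that binds SAP97, was higher ventrally (38.7 ± 1.24 against 48.5 ± 3.47 FPKM, SD, n = 4 each, log2 fold change 0.32, adjusted p = 0.0265, limma). Over the 8 fits that left out 1 library, the log2 ratio of mean FPKM stayed between −0.33 and −0.26 for *Gria4* (−0.30 with all libraries) and between 0.30 and 0.37 for *Gria1* (0.33 with all libraries). The call was nevertheless lost in most of these fits. *Gria4* kept it only without V3 and *Gria1* only without V4, with adjusted p reaching 0.107 and 0.0875. *Gria4* was also not called by limma without a mean-variance trend (adjusted p = 0.0590). In the 4 libraries whose headers match their region neither was called (limma, adjusted p = 0.589 for *Gria4* and 0.587 for *Gria1*), but that fit called 0 of 13661 genes. With total FPKM made equal across libraries, the adjusted p by limma was 0.119 for *Gria4* and 0.0665 for *Gria1*, so that neither kept its call. The inhibitory counterpart, gephyrin (*Gphn*) with the adhesion protein gene *Nlgn2*, had 0 of 2 genes called by limma and 0 at an unadjusted *p* under 0.05. The median log2 ratio was 0.01 for the other scaffolds, −0.01 for the enzymes and −0.02 for the receptors.

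Markers of the cell types in the tissue were examined beside these results. The 7 oligodendrocyte markers were all D>V, with a summed FPKM of 832 to 1099 dorsally and 459 to 602 ventrally, led by *Mbp*. The 5 general neuronal markers, led by *Snap25*, had 0 called by limma and 1 at an unadjusted *p* under 0.05, with sums of 3894 to 5124 FPKM dorsally and 3366 to 4355 ventrally. Of the 5 glutamatergic markers, led by *Slc17a7*, 1 was D>V, *Slc17a6*, with sums of 260 to 294 dorsally and 231 to 272 ventrally. The 4 GABAergic markers, led by *Gad2*, had 0 called by limma, with 2 at an unadjusted *p* under 0.05 and sums of 140.0 to 143 and 138 to 150.1. The neuronal markers were thus detected in every library. Among glia, 0 of 3 precursor markers (led by *Pdgfra*, sums 14.8 to 16.0 and 17.3 to 17.7), 0 of 6 astrocyte markers (*Aldoc*, 314 to 319 and 313 to 358) and 0 of 6 microglial markers (*P2ry12*, 45.0 to 48.4 and 49.9 to 56.3) were called by limma, with 1, 3 and 2 at an unadjusted *p* under 0.05. Of 5 endothelial markers, led by *Slco1a4*, 0 were called by limma and 2 had an unadjusted *p* under 0.05 (sums 21.3 to 24.7 and 15.8 to 21.8). Of the 5 leptomeningeal markers 4 were tested, and *Dcn*, the most abundant, was V>D (sums 29.7 to 38.0 and 55.8 to 68.5). The part of these differences in the values of the scaffold genes was not tested.

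**Figure D4:**
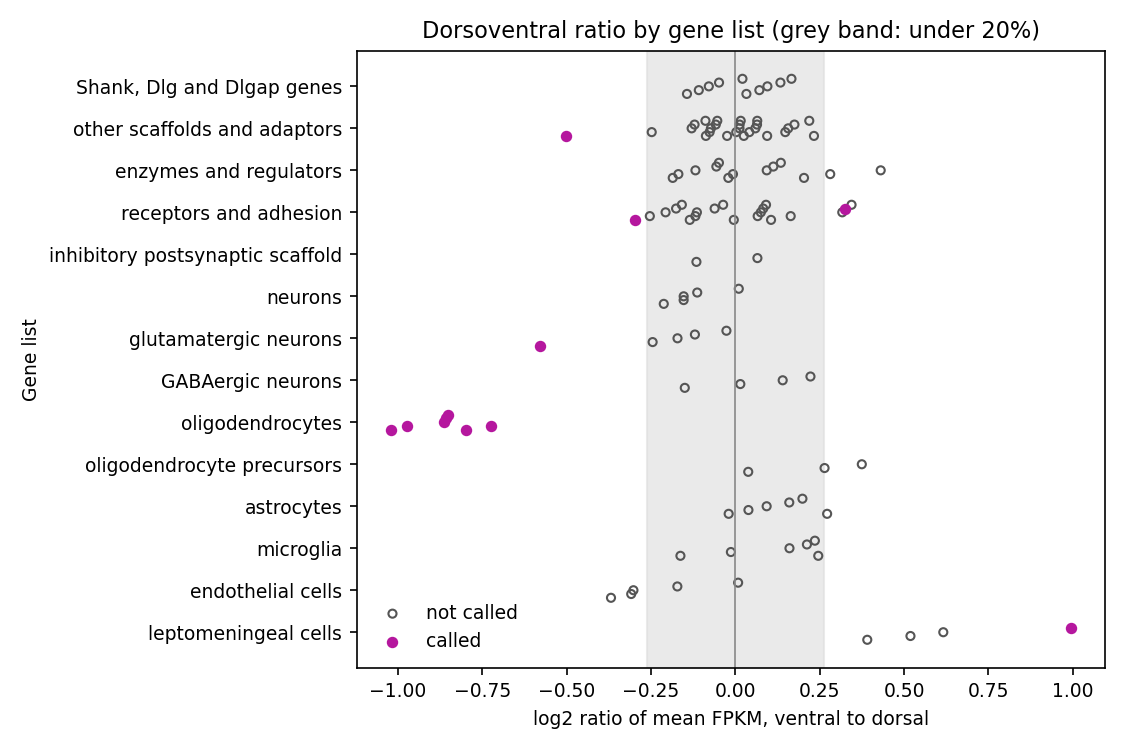
log2 ratio of mean FPKM, ventral to dorsal, for each tested gene of the scaffold families, of related postsynaptic lists and of cell type marker lists (1 point per gene, filled where called, grey band for differences under 20%). The 10 scaffold genes lie between −0.14 and 0.17, inside the band, while the 7 oligodendrocyte markers lie between −1.02 and −0.72.

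In GRCm38, by GENCODE M21, the genes lie on 8 chromosomes, and they differ widely in size. *Dlg2*, on chromosome 7 from 90476672 to 92449247, spans 1972576 bp, whereas *Dlg4*, on chromosome 11 from 70016942 to 70047522, spans 30581 bp. The other long genes were *Dlgap1* (chromosome 17, 69969073 to 70821413), *Dlgap2* (chromosome 8, 14095865 to 14847680) and *Shank2* (chromosome 7, 144001928 to 144424494). The exons of a gene cover much less, between 4521 bp for *Dlgap3* and 17890 bp for *Dlgap1*. Both the longest gene and the shortest were thus among the 3 most abundant. The remaining genes were *Shank1* (chromosome 7, 44310253 to 44360572), *Shank3* (chromosome 15, 89499623 to 89560261), *Dlg1* (chromosome 16, 31663443 to 31875129), *Dlg3* (chromosome X, 100767722 to 100818410) and *Dlgap3* (chromosome 4, 127169204 to 127237022).

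The longest coding transcript was richest in G and C for *Dlgap3*, at 63.9%, followed by *Shank3* at 62.4% and *Shank1* at 61.4%. It was poorest for *Dlg1*, at 43.8%, with *Dlg2* at 44.3% and *Dlg4* at 46.8%. The 2 least abundant genes were thus the 2 richest in G and C, although *Shank1*, of like composition, had 121 FPKM, and the part of base composition in the levels was not tested. Exons of *Shank1* overlap an antisense gene over 339 bp (3.22% of its exons), those of *Shank3* over 271 bp (2.95%) and those of *Dlgap1* over 92 bp. No strand-specific counting is stated, so fragments there cannot be assigned to a strand. Exons of *Dlg2* overlap 2 genes on the same strand, over 150 bp (0.921% of its exons) and 75 bp (0.461%).

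Over the 8 libraries the genes whose log2(FPKM + 1) followed the mean standardised profile of the 10 genes most closely were *Rpl22-ps1* (r = 0.971), *2610020H08Rik* (r = 0.958) and *Trip12* (r = 0.939). These are the highest of all genes tested, over 8 points that share the scaling between libraries, and are given as a description. The scaffold genes themselves correlated with that profile between 0.07 for *Dlgap1* and 0.93 for *Dlgap2*, so the profile was not common to them.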

How the data were processed

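RNA from dorsal and ventral MEC pools was amplified (Ovation RNA-Seq System V2) from 120 ng per sample, with RNA integrity numbers of 7.1 to 8.5. Per the labels and the paper's methods, the authors aligned paired-end fragments with TopHat2 2.0.8 to GRCm38 with Ensembl genes and computed FPKM per gene and library with Cuffdiff 2. The submitters' processing notes also name CASAVA 1.8. The deposited fold changes, p-values and q-values of the authors' own comparison were not used. Another deposited table lists fragments by condition and replicate number. Its 4 columns of values were not used here. Replicate numbers there are not tied to named libraries. A count test between the conditions needs no such tie, but it was not run.

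Genes that the authors marked as having enough alignments (14989 of 38553) and with a mean of at least 1 FPKM were tested, which left 13674. Dorsal and ventral libraries were compared unpaired with limma 3.58.1 (R 4.3.3), with a mean-variance trend and a constant of 1 added before the logarithm, which draws low values together. Where a symbol has several identifiers (*Magi2*), the most abundant was used. In simulated data for this comparison, with 13674 genes, limma recovered 95 of 100 genes changed by 1 on the log2 scale, 65 of 100 changed by 0.5, and made 0 calls where no gene was changed. Permutation tests and plots used Python 3.11.15, NumPy 2.4.6 and matplotlib 3.10.9. The 4 pools of a region came from 4 groups of mice.

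The 10 genes, the lists and the tests were chosen with earlier results of these data known. Some genes of the lists are not reported here and are left out of the list counts, sums and medians. Named are the 10 genes, *Dlg5* and *Dlgap4* of the same families, every called gene of a related postsynaptic list, the most abundant gene of each marker list, and the 3 genes whose profile was most like the scaffold genes. Alternatives covered the added constant, the FPKM filter, scaling, the variance model, the call rule, the regions of the columns, the family sums and leaving out each library.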

Additional observations from a re-analysis of the deposited data

Results flagged for a closer look

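*Dlgap1* and *Dlg2* had nearly equal levels, and their order within a library differed between the regions. *Dlgap1* was higher than *Dlg2* in 4 of 4 dorsal libraries, with a mean log2 difference of 0.19 ± 0.07 (SD, n = 4), and lower in 4 of 4 ventral libraries, with −0.02 ± 0.01 (SD, n = 4). The ventral minus dorsal change of this difference was −0.215, and it was not tested. It was singled out after the values were seen, as the 1 pair of 45 pairs of scaffold genes whose order switched completely, and the ventral differences, between −0.03 and −0.004, were close to 0. Among 26 groups of 4 libraries, for the 10 scaffold genes and *Homer1*, *Gria1* and *Gria4*, 0 had a library set apart from the others by Dixon's test, where chance gives about 1 in 20.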

How the results depend on the processing

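Under each of the 19 alternatives, 0 of the 10 scaffold genes were called in either direction, and their lowest adjusted p under any alternative was 0.146 (limma, *Dlg3* without the library headed V2). The sign of the log2 ratio of *Shank3*, *Dlg1*, *Dlg2* and *Dlg3* held in each alternative that can move it (equal total FPKM, quantile normalization, the headers' regions, the 4 matching libraries and leaving out each library), while that of *Dlgap2* changed in 4, of *Shank1* and *Dlgap3* in 2 each and of *Shank2*, *Dlg4* and *Dlgap1* in 1 each, all without a call. With all genes, the calls went from 294 D>V and 198 V>D to 195 and 201 when total FPKM was made equal across libraries, to 157 and 91 without V1, to 1 and 0 with the regions as the headers name them and to 0 and 0 with the 4 libraries whose headers match. Under the headers' regions the log2 ratio reversed for *Homer1* (0.0142), *Gria1* (−0.0701) and *Gria4* (0.0907), none called. In the ventral libraries alone 8 of the 10 genes kept their place in the order of levels, since *Dlg2* and *Dlgap1* exchanged theirs. No paired analysis was possible because the columns carry no number that ties a dorsal to a ventral pool of the same mice. Fragment totals were not used, so counting error is not given.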
